A study of Mus musculus with 35 samples.

Results

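Commitment of blood progenitors to the B, T and innate lymphoid lineages depends on a small set of transcription regulators, and 10 of them were followed here in hematopoietic stem/progenitor cells (HSPCs) with and without the histone demethylase JMJD1B. They were chosen by name as known lymphoid regulators, with earlier results of these data already known: the Ikaros family zinc-finger factors Ikzf1, Ikzf2 and Ikzf3, the E proteins Tcf3 and Tcf4, the B lineage factor Ebf1, the inhibitors of DNA binding Id1, Id2 and Id3, and the chromatin organizer Satb1. Of the 10 genes, 8 were present among the 11982 gene names of the expression table, and all 8 were among the 11863 genes tested. Ebf1 and Id3 were not analysed here.

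RNA-seq compared HSPCs from the bone marrow of WT mice with HSPCs from JMJD1B-/- mice, in which a gene trap disrupts Kdm3b, the gene of JMJD1B. The labels give the strain 129P2xC57BL/6J for both genotypes, and the knockout line was raised from embryonic stem cells of the 129P2 background. There were 2 libraries per genotype, made from polyA RNA with a TruSeq kit, and the study used adult mice of both sexes. The labels do not give the animal, age or sex behind each library or how the HSPCs were gated, so the p-values below measure the spread between these 4 libraries.

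E proteins are basic helix-loop-helix factors that pair with each other or with related proteins and bind DNA at E-boxes (CANNTG). Id proteins have the helix-loop-helix but no DNA-binding region, so they hold E proteins in pairs that cannot bind DNA. Ikaros factors bind DNA at GGGAA motifs, pair with one another, and recruit chromatin remodelling complexes. Multipotent progenitors that express Ikzf1, Tcf3 and Satb1 turn on lymphoid genes before lineage commitment, whereas high Id2 marks innate lymphoid and NK cells and high Ikzf3 marks maturing lymphocytes.

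Expression was given as RPKM, a read count scaled by transcript length and by library depth. Comparisons between libraries also depend on the makeup of each library, and other scalings were run as alternatives. The depth estimated from the table was 17500000 and 24600000 reads in WT replicates 1 and 2, 6100000 in JMJD1B-/- replicate 1 and 21000000 in JMJD1B-/- replicate 2, so the first JMJD1B-/- library was the least precise. For a 1 kb transcript, 3 reads were worth an RPKM between 0.122 and 0.491. Kdm3b had an RPKM of 31.0 and 24.3 in the WT libraries and 4.00 and 4.63 in the JMJD1B-/- libraries, 15.6% of the WT mean, so the targeted gene was low in the libraries labelled as knockouts. The difference was -2.65 on the log2 scale (SE 0.24, limma adjusted p = 0.0314), and the call was lost without WT replicate 1 (-2.47, limma adjusted p = 0.549) and without WT replicate 2 (-2.82, limma adjusted p = 0.457). Xist, the X-inactivation RNA, was at 332 RPKM in WT replicate 2 and at 0.051 or lower in the other 3 libraries, and its part in the values below was not tested.

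In WT HSPCs the 8 regulators spanned a range from Ikzf1, with a mean of 76.1 ± 9.09 RPKM (SD, n = 2 libraries), to Id1, with 2.64 ± 0.701 RPKM. Ikzf1 exceeded 95.3% of the listed genes and Id1 exceeded 18.2% of them. Between these ends lay Tcf3 at 34.6 ± 2.29, Tcf4 at 15.7 ± 3.14, Satb1 at 11.8 ± 1.07, Ikzf2 at 11.6 ± 2.12, Id2 at 7.97 ± 1.81 and Ikzf3 at 4.94 ± 0.970 RPKM. Satb1 and Ikzf2 changed places between the WT libraries, and no other neighbours in this order overlapped. Ikzf1 and Tcf3 had the highest values in all 4 libraries and Id1 the lowest in all 4. Id2 and Ikzf3 took ranks 3 and 4 of the 8 in JMJD1B-/- replicate 1, against ranks 5 to 7 in the other libraries.

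**Figure D1:**
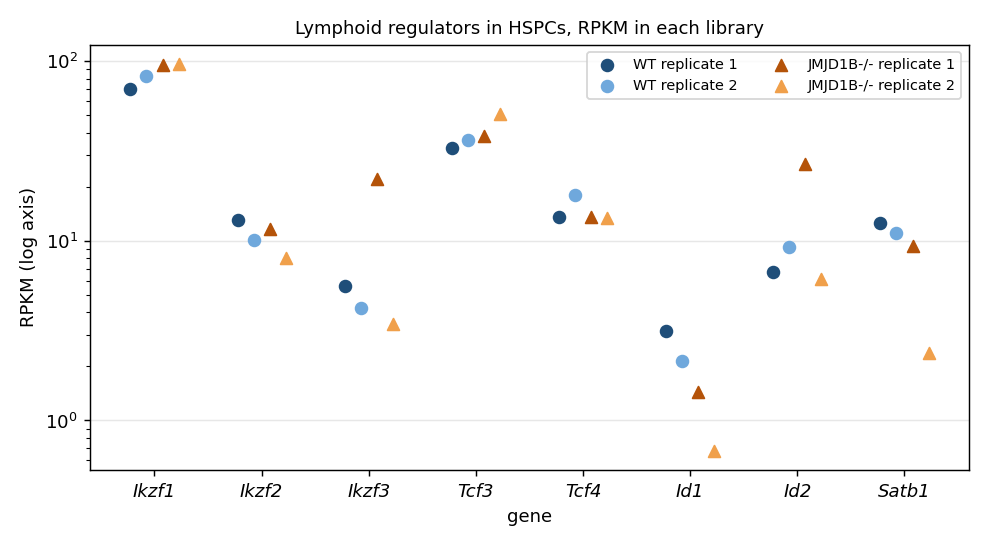
RPKM (log axis) of the 8 listed lymphoid regulators in each of the 4 HSPC libraries, circles for WT and triangles for JMJD1B-/-. Ikzf1 and Tcf3 had both triangles above both circles, Id1 and Satb1 had both below, and for Ikzf3 and Id2 JMJD1B-/- replicate 1 alone stood high, at 21.97 and 26.9.

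No regulator differed between genotypes after adjustment over all genes tested (limma on log2(RPKM + 0.1), 0 of 8 at an adjusted p under 0.05), and 0 of 8 had an unadjusted p under 0.05. Testing each gene alone, with equal variances, gave 0 of 8 under either rule. The unadjusted count was 2 with a pseudocount of 1 and 2 with no filter on low values (beside 10.5% and 10.1% of all genes in those fits). It was 1 with limma without a trend and 1 with the replicate number as a block (beside 9.39% and 12.5%). Over all 11863 genes, 5 (0.0421%) passed after adjustment, 3.81% were higher at an unadjusted p under 0.05 and 6.33% were lower, and at such rates a list of 8 genes holds few calls or none. Under quantile normalization the counts over all genes at an unadjusted p under 0.05 were 671 higher and 714 lower, against 452 and 751. For 2 of 8 regulators (Ikzf1 and Tcf3) both JMJD1B-/- values exceeded both WT values, beside 20.1% of all genes tested. For another 2 of 8 (Id1 and Satb1) both were lower than both WT values, beside 22.7% of all genes. The median log2 fold change of the 8 was 0.07, against -0.02 over all genes, with 4 values above 0 and 4 below. With 2 libraries against 2, an exact two-sided permutation test of a single gene cannot go below p = 0.333, and a gene that misses the threshold here is not shown to be equal between genotypes.

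Ikzf1 encodes Ikaros, which is required for lymphoid specification. Its RPKM was 69.7 and 82.5 in the WT libraries and 95.7 and 96.5 in the JMJD1B-/- libraries. The JMJD1B-/- values were close to each other and both exceeded the higher WT value, with a mean of 126% of WT. This was a log2 fold change of 0.34 (SE 0.18, 95% interval -0.07 to 0.75, limma adjusted p = 0.570). Among the genes tested, 98.1% had a wider gap between the JMJD1B-/- libraries than Ikzf1. With any 1 library left out, the estimate for Ikzf1 stayed between 0.22 and 0.46 on the log2 scale.

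Ikzf2 encodes Helios, an Ikaros relative found in stem cells and regulatory T cells. Its RPKM was 13.1 and 10.1 in WT and 11.6 and 8.04 in JMJD1B-/- libraries. The genotypes overlapped, and the log2 fold change of -0.25 (SE 0.28, limma adjusted p = 0.791) was smaller than its error and was 0.01 without JMJD1B-/- replicate 2. Ikzf3 encodes Aiolos, an Ikaros relative of committed and mature lymphocytes. Its RPKM was 5.62 and 4.25 in WT, 21.97 in the first JMJD1B-/- library and 3.46 in the second. These 2 JMJD1B-/- values stood on opposite sides of both WT libraries and differed from each other 6.36-fold, a gap exceeded by 2.04% of the genes tested. For Ikzf3 the log2 fold change was 0.83 (SE 0.74, 95% interval -0.90 to 2.56, limma adjusted p = 0.734). Without JMJD1B-/- replicate 1 it was -0.49, and without JMJD1B-/- replicate 2 it was 2.14, so the direction was set by which library was kept.

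Among relatives of the Ikaros family, Ikzf5, which encodes Pegasus, had 8.25 and 10.7 RPKM in WT and 11.8 and 12.1 RPKM in JMJD1B-/- libraries (log2 fold change 0.34, SE 0.24, limma adjusted p = 0.661). The summed RPKM of Ikzf1, Ikzf2, Ikzf3 and Ikzf5 was 96.6 and 108 in WT and 141 and 120 in JMJD1B-/- libraries. Ikzf1 made up 72.1% and 76.7% of this sum in WT, 67.8% in JMJD1B-/- replicate 1 and 80.4% in JMJD1B-/- replicate 2, so Ikaros was the main family transcript in every library. Ikzf3 made up 15.6% in JMJD1B-/- replicate 1 and between 2.88% and 5.82% in the other 3. The share of Ikzf2 was 13.5% and 9.36% in WT and 8.21% and 6.70% in JMJD1B-/- libraries.

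Tcf3 encodes E2A, the source of the E12 and E47 proteins, on which B cell commitment depends. Its RPKM was 33.0 and 36.2 in WT and 38.2 and 50.9 in JMJD1B-/- libraries. Both JMJD1B-/- values exceeded both WT values, by a narrow margin in replicate 1, and their mean was 129% of WT. For Tcf3 the log2 fold change was 0.35 (SE 0.21, 95% interval -0.13 to 0.83, limma adjusted p = 0.604). The symbol Tcf3 has also served as an older name of Tcf7l1, a Wnt pathway factor, which has no entry of its own in the table, and the gene is taken here by its current symbol. Tcf4, the E protein E2-2 of plasmacytoid dendritic cells and B cells, had an RPKM of 13.5 and 18.0 in WT and 13.6 and 13.4 in JMJD1B-/- libraries. The symbol Tcf4 has likewise been used for Tcf7l2, and this gene too is taken by its current symbol. The JMJD1B-/- values of Tcf4 nearly coincided and overlapped WT replicate 1, with a log2 fold change of -0.20 (SE 0.23, limma adjusted p = 0.792). Tcf12, which encodes the related E protein HEB, had 18.7 and 20.6 RPKM in WT and 22.5 and 25.9 RPKM in JMJD1B-/- libraries (log2 fold change 0.30, SE 0.20, limma adjusted p = 0.640).

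Summed over Tcf3, Tcf4 and Tcf12, E protein RPKM was 65.2 and 74.8 in WT and 74.2 and 90.2 in JMJD1B-/- libraries. Tcf3 made up 50.6% and 48.4% of that sum in WT and 51.4% and 56.4% in JMJD1B-/- libraries. Tcf4 made up 20.7% and 24.0% in WT and 18.3% and 14.9% in JMJD1B-/- libraries, below both WT values in both, while the share of Tcf12 lay between 27.6% and 30.3% throughout. Erythroid markers stood higher in the same libraries. All 8 erythroid markers exceeded both WT values in each JMJD1B-/- library (beside 20.1% of all genes tested), with a summed RPKM of 627 and 892 in WT and 1780 and 2390 in JMJD1B-/- libraries and none at 0. Their part in the values of Ikzf1, Ikzf5, Tcf3 and Tcf12 was not tested. In bulk RNA, a change in the number of cells of a type cannot be told apart from a change in RNA per cell.

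**Figure D2:**
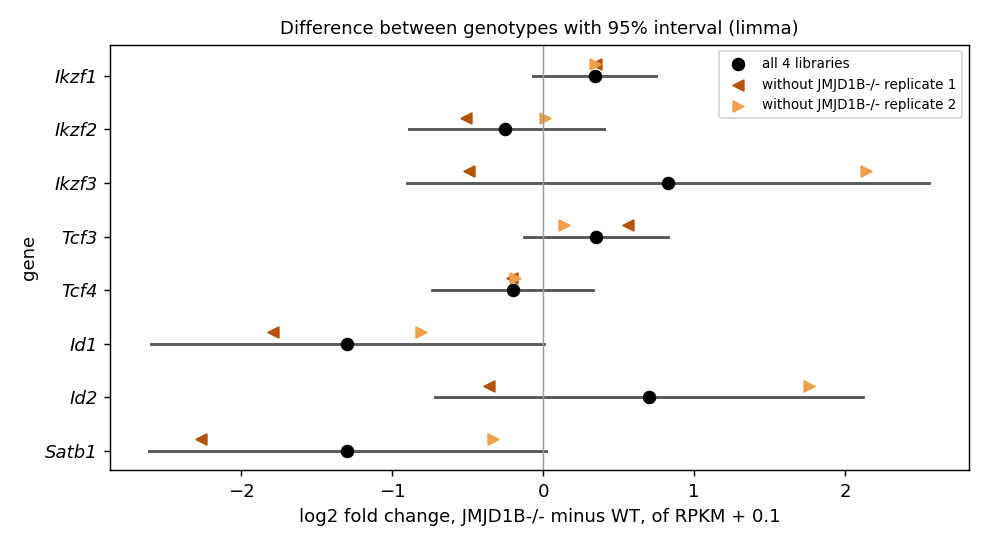
Log2 fold change of RPKM + 0.1 (JMJD1B-/- minus WT) for each regulator, with black points and bars for the limma estimate and its 95% interval over all 4 libraries. Triangles give the estimate without 1 JMJD1B-/- library, and for Ikzf3 (-0.49 and 2.14) and Id2 (-0.36 and 1.76) they lie far apart on opposite sides of 0.

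Id1, a target of BMP signalling that restrains E proteins in stem cells and myeloid progenitors, was the lowest of the 8. Its RPKM was 3.13 and 2.14 in WT and 1.44 and 0.677 in JMJD1B-/- libraries. Both JMJD1B-/- values were below both WT values, with a mean of 40.1% of WT. For Id1, the values matched whole numbers of reads at an implied length of 913 bases, namely 50 and 48 reads in WT and 8 and 13 reads in JMJD1B-/- libraries. The 95% Poisson intervals of these counts, which cover counting error only, were 37.11 to 65.92, 35.39 to 63.64, 3.45 to 15.76 and 6.92 to 22.23, so few reads stood behind the JMJD1B-/- values. The count and depth of JMJD1B-/- replicate 1 rest on a halving made because the counts of 48 of 48 checked genes came out even there, which is an inference from the values. The log2 fold change of Id1 was -1.30 (SE 0.56, 95% interval -2.60 to 0.0024, limma unadjusted p = 0.0503, adjusted p = 0.491). With JMJD1B-/- replicate 1 left out it was -1.79, and with JMJD1B-/- replicate 2 left out it was -0.81. Leaving out WT replicate 1 gave -1.04 and leaving out WT replicate 2 gave -1.56. The markers of stroma and endothelium (6 of 7 listed) summed to an RPKM of 40.0 and 69.3 in WT and 24.3 and 11.0 in JMJD1B-/- libraries, with none at 0. Of these, 3 were below both WT values in both JMJD1B-/- libraries (beside 22.7% of all genes tested). Pecam1 alone had 33.97 and 33.9 RPKM in WT and 19.5 and 7.97 RPKM in JMJD1B-/- libraries. Col1a1, Cxcl12 and Lepr were high in WT replicate 2 (15.7, 5.92 and 2.04 RPKM). In WT replicate 1 these genes (0.997, 0.293 and 0.223 RPKM) were below JMJD1B-/- replicate 1 (2.13, 1.26 and 0.369 RPKM). Basophil and mast cell markers (6 of 6 listed, none at 0) summed to 474 and 550 RPKM in WT and 98.2 and 42.2 RPKM in JMJD1B-/- libraries, all 6 below both WT values in both (beside 22.7% of all genes tested) and lowest in JMJD1B-/- replicate 2. Granulocyte markers (10 of 10 listed, 8 tested) summed to 292 and 202 RPKM in WT and 88.5 and 55.4 RPKM in JMJD1B-/- libraries, with 1 marker at 0 in each of WT replicate 2 and JMJD1B-/- replicate 1. Members of the granulocyte list went both ways, with 5 lower and 2 higher (S100a8 and S100a9, named after their values were seen) at an unadjusted p under 0.05, beside 6.33% and 3.81% of all genes. The part of these shifts in the values of Id1 was not tested.

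Id2, the E protein inhibitor needed for NK and other innate lymphoid cells, had an RPKM of 6.69 and 9.25 in WT, 26.9 in JMJD1B-/- replicate 1 and 6.11 in JMJD1B-/- replicate 2. As for Ikzf3, the JMJD1B-/- libraries fell on opposite sides of both WT libraries and differed 4.41-fold from each other, a gap exceeded by 3.57% of the genes tested. Its log2 fold change was 0.70 (SE 0.61, 95% interval -0.72 to 2.12, limma adjusted p = 0.722). It was -0.36 with JMJD1B-/- replicate 1 left out and 1.76 with JMJD1B-/- replicate 2 left out. The ratio of Id2 to Id1 was 2.14 and 4.32 in WT and 18.8 and 9.02 in JMJD1B-/- libraries, so Id2 was the more abundant Id transcript in every library and the more so in both JMJD1B-/- libraries.

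The promoters of Id2 and Satb1 are shown because the expression of these genes turned on different JMJD1B-/- libraries. Each is the 250 bases before the gene's most upstream start in RefSeq, build GRCm38.p6, written 5′ to 3′ on the strand of the gene, with E-boxes (CANNTG) and Ikaros-type motifs (GGGAA or its complement TTCCC) in capitals. The Id2 window is chr12:25096093-25096342 (minus strand) and the Satb1 window is chr17:51833291-51833540 (minus strand).
Id2: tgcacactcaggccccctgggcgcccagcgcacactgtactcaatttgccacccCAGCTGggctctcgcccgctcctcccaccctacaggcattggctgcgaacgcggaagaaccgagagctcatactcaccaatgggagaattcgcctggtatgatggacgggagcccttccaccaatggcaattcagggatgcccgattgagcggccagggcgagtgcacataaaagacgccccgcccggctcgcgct
Satb1: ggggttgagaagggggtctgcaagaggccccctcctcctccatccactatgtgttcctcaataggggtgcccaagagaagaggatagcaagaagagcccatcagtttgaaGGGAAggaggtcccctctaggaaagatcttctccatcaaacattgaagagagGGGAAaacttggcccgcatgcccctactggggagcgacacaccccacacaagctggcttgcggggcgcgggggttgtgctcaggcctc
The Id2 window held 1 E-box and 0 GGGAA motifs, whereas the Satb1 window held 0 E-boxes and 2 GGGAA motifs. Of 32851 RefSeq promoters cut to the same 250 bases, 66.2% held at least 1 CANNTG and, counting both strands, 56.2% held at least 1 GGGAA and 21.2% held at least 2. The Id2 window had a GC content of 62.8% and 18 CpG, the Satb1 window 58.0% and 5 CpG, and the median promoter 52.4% and 6 CpG. A match of letters is a description of the window and not a bound site.

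Because Id proteins act by the amount of E protein they can hold, their transcripts were set against each other within each library, which does not depend on scaling between libraries. The ratio of summed Id1 and Id2 RPKM to summed Tcf3, Tcf4 and Tcf12 RPKM was 0.151 and 0.152 in WT, and 0.382 in the first and 0.0753 in the second JMJD1B-/- library. The WT libraries were nearly equal, while one JMJD1B-/- library lay above them and the other below. The log2 difference between genotypes was 0.16 (exact two-sided permutation test p = 1.0), in a test that cannot go below p = 0.333 with these 4 libraries. Leaving out the first JMJD1B-/- library gave -1.01, and leaving out the second gave 1.34. The Id sum was 28.4 and 6.79 RPKM in the JMJD1B-/- libraries against 9.82 and 11.4 RPKM in WT, a wider spread than that of the E protein sum. Id3 was not analysed here and could not enter the sum.

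**Figure D3:**
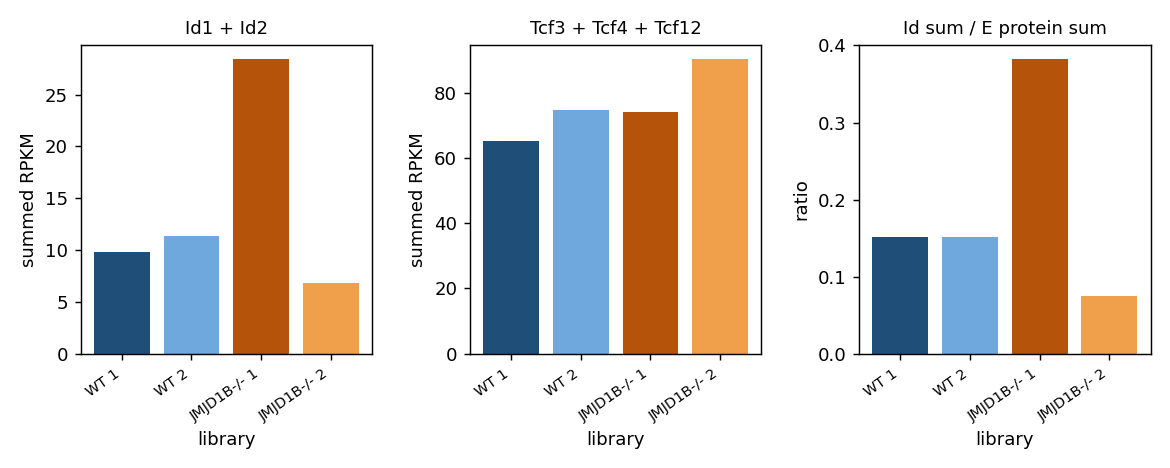
Summed RPKM of Id1 and Id2 (left), summed RPKM of Tcf3, Tcf4 and Tcf12 (middle) and their ratio (right), 1 bar per library. The ratio was 0.151 and 0.152 in the WT libraries, and 0.382 and 0.0753 in JMJD1B-/- replicates 1 and 2.

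The high values of Ikzf3 and Id2 fell in the library with the most T and NK cell transcripts. Of 10 T cell markers 7 were listed, and all 7 were highest in JMJD1B-/- replicate 1, where they summed to 35.9 RPKM against 5.07 and 7.70 in WT and 8.35 in JMJD1B-/- replicate 2. Cd3g, a subunit of the T cell receptor complex named after its values were seen, had 0.444 and 0.474 RPKM in WT, 11.7 RPKM in JMJD1B-/- replicate 1 and 1.66 RPKM in JMJD1B-/- replicate 2. All 9 NK markers were listed, 8 of them highest in JMJD1B-/- replicate 1 and 8 lowest in JMJD1B-/- replicate 2, with sums of 30.4 and 42.5 RPKM in WT and 63.6 and 15.9 RPKM in JMJD1B-/- libraries. A gene was listed only if it reached an RPKM of 1 in some library. Cd3d, Cd8a, Cd28, Eomes and Prf1 did so in JMJD1B-/- replicate 1 alone, so the listing itself set where they were highest. Cd3g and Bcl11b did so in JMJD1B-/- libraries alone. No listed marker of either type was at 0 in any library, and 16.6% of all genes tested, at all levels, were highest in JMJD1B-/- replicate 1. This library was also the shallowest of the 4. The part of T or NK transcripts, and of depth, in the values of Ikzf3 and Id2 was not tested.

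Satb1 arranges chromatin loops and is expressed in stem cells and early lymphoid progenitors. Its RPKM was 12.6 and 11.1 in WT, 9.36 in JMJD1B-/- replicate 1 and 2.37 in JMJD1B-/- replicate 2. Both JMJD1B-/- values were below both WT values, replicate 1 by a small margin and replicate 2 by a wide one, and their mean was 49.6% of WT. For Satb1 the log2 fold change was -1.30 (SE 0.56, 95% interval -2.61 to 0.02, limma unadjusted p = 0.0521, adjusted p = 0.491). Leaving out JMJD1B-/- replicate 1 gave -2.27 and leaving out JMJD1B-/- replicate 2 gave -0.33, so the size of the difference rested on the latter library. The JMJD1B-/- libraries differed 3.94-fold, a gap exceeded by 4.52% of the genes tested. Counting all 8 regulators, 6 were lowest in JMJD1B-/- replicate 2 (Ikzf2, Ikzf3, Tcf4, Id1, Id2 and Satb1), beside 20.3% of all genes tested.

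Early lymphoid progenitor genes, which include receptors and enzymes that these regulators are known to act on, were split between the JMJD1B-/- libraries, with 7 of 11 highest in replicate 1 (beside 16.6% of all genes tested) and 7 of 11 lowest in replicate 2 (beside 20.3%). Of 13 genes 11 were listed and 0 passed adjustment in limma. Rag1 was listed only through JMJD1B-/- replicate 1, at 1.3 RPKM. At an unadjusted p under 0.05, 4 were lower and 0 higher, beside 6.33% and 3.81% of all genes, with a median log2 fold change of -0.38 against -0.02 over all genes. The 4 became 0 without WT replicate 1, 1 without WT replicate 2, 6 without JMJD1B-/- replicate 1 and 8 without JMJD1B-/- replicate 2, beside 2.68%, 4.47%, 23.1% and 21.1% of all genes in the same fits. Flt3, the receptor of lymphoid-primed progenitors, had 25.1 and 32.6 RPKM in WT and 18.4 and 3.37 RPKM in JMJD1B-/- libraries (log2 fold change -1.84, limma adjusted p = 0.433). Flt3 was lowest in JMJD1B-/- replicate 2, as was Satb1. Cd27, a co-stimulatory receptor of progenitors and lymphocytes, had 9.95 and 8.76 RPKM in WT and 4.66 and 4.95 RPKM in JMJD1B-/- libraries (log2 fold change -0.94, limma adjusted p = 0.320). Ccr9, a homing receptor for the thymus and gut, had 1.44 and 0.889 RPKM in WT and 0.186 and 0.0216 RPKM in JMJD1B-/- libraries, both near the level of a few reads.

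A pair of early lymphoid genes, named after their values were seen, also differed widely between the JMJD1B-/- libraries. Il7r, the receptor on which lymphocyte precursors depend, had 4.94 and 10.2 RPKM in WT, 39.4 RPKM in JMJD1B-/- replicate 1 and 6.70 RPKM in JMJD1B-/- replicate 2. Dntt, the terminal transferase that is turned on in lymphoid-primed progenitors, had 20.6 and 27.4 RPKM in WT, 37.8 RPKM in JMJD1B-/- replicate 1 and 2.76 RPKM in JMJD1B-/- replicate 2. Both were highest in the first JMJD1B-/- library, and Dntt differed 13.7-fold between the JMJD1B-/- libraries. Summed over the 11 genes, RPKM was 116 and 144 in WT, and 164 and 35.1 in JMJD1B-/- replicates 1 and 2. The markers of plasmacytoid dendritic cells (5 of 8 listed) were all 5 lowest in JMJD1B-/- replicate 2, at a sum of 18.9 RPKM against 62.6 and 79.4 in WT and 48.3 in JMJD1B-/- replicate 1, and none was at 0. HSPC markers (12 of 12 listed) summed to 336 and 317 RPKM in WT and 199 and 243 RPKM in JMJD1B-/- libraries, 7 of them below both WT values in both (beside 22.7% of all genes tested) and none at 0. Monocyte markers (6 of 7 listed) summed to 80.3 and 98.4 RPKM in WT and 75.9 and 16.1 RPKM in JMJD1B-/- libraries, with 5 of the 6 lowest in JMJD1B-/- replicate 2 and none at 0. The part of these shifts, and of the lower basophil and mast cell transcripts given beside Id1, in the values of Satb1 was not tested.

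**Figure D4:**
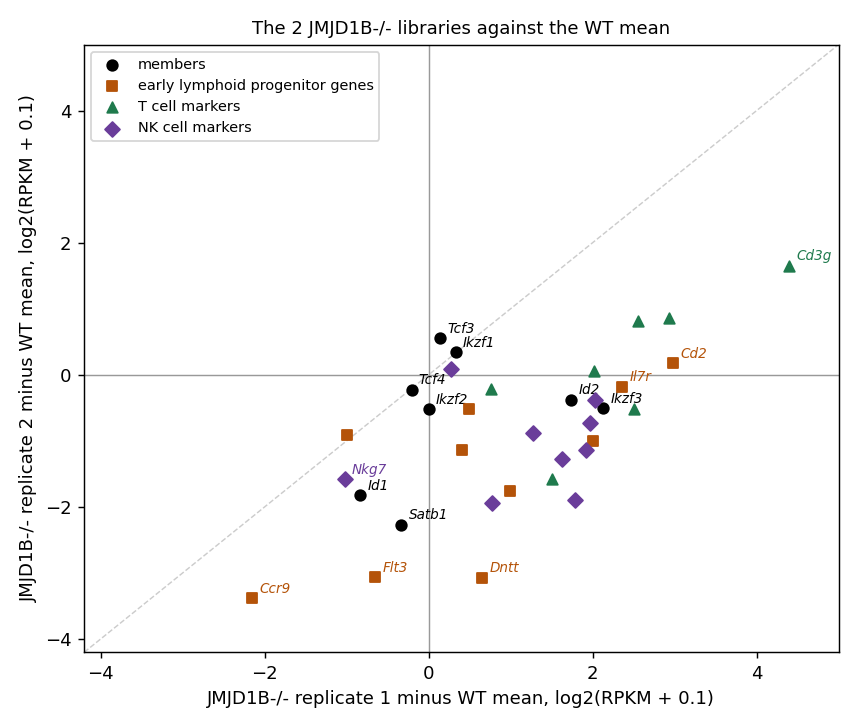
Each gene's log2(RPKM + 0.1) minus the WT mean, with JMJD1B-/- replicate 1 on the horizontal axis and JMJD1B-/- replicate 2 on the vertical axis, for the 8 regulators, 10 of the 11 early lymphoid progenitor genes, 7 T cell markers and 9 NK cell markers, with the dashed line marking equal values. Ikzf1 and Tcf3 lay above WT in both libraries, Id1 and Satb1 lay below in both, and Ikzf3 and Id2 lay above WT in replicate 1 and below it in replicate 2, as did most NK markers, whereas the T cell markers lay on both sides of WT in replicate 2.

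Among 32 other lymphoid transcription factors, 29 were listed and 28 tested, and 0 passed adjustment in limma. At an unadjusted p under 0.05, 2 were higher and 3 lower, beside the 3.81% and 6.33% of all genes, and these 5 became 2 without WT replicate 1, 3 without WT replicate 2, 10 without JMJD1B-/- replicate 1 and 12 without JMJD1B-/- replicate 2. Shares of all genes at an unadjusted p under 0.05 in those fits were 2.68%, 4.47%, 23.1% and 21.1%, against 10.1% with all 4 libraries, so the count over all genes moved in the same way. Bcl11b, a T cell commitment factor, had 0.555 and 0.647 RPKM in WT and 5.23 and 1.17 RPKM in JMJD1B-/- libraries (log2 fold change 1.89, limma adjusted p = 0.477). Bcl11b was higher in the first JMJD1B-/- library than in the second, as were Ikzf3 and Id2. Irf8, a factor of dendritic and B cell development, had 45.9 and 55.0 RPKM in WT and 33.3 and 9.34 RPKM in JMJD1B-/- libraries (log2 fold change -1.50, limma adjusted p = 0.420). Sox4, needed by early B and T progenitors, had 19.9 and 14.7 RPKM in WT and 10.9 and 11.8 RPKM in JMJD1B-/- libraries (log2 fold change -0.59, limma adjusted p = 0.474).

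Early B lineage genes, the group that Tcf3 and Ebf1 are best known to activate, were sparse in these cells. Of 14 genes 7 were listed and 6 tested, with sums of 14.8 and 13.9 RPKM in WT, 39.5 in JMJD1B-/- replicate 1 and 6.96 in JMJD1B-/- replicate 2. None of the 6 passed adjustment in limma, and 1 was higher and 1 lower at an unadjusted p under 0.05, beside 3.81% and 6.33% of all genes. Leaving out either WT library gave 1 in all (beside 2.68% and 4.47% of all genes), and leaving out JMJD1B-/- replicate 1 gave 4 (beside 23.1%). Blk, a Src family kinase of B cells and of some T cells, had 0.613 and 0.668 RPKM in WT and 24.6 and 3.71 RPKM in JMJD1B-/- libraries (log2 fold change 3.71, limma adjusted p = 0.211), so most of the summed level in JMJD1B-/- replicate 1 was Blk. Cd79b, a subunit of the B cell receptor, had 3.28 and 1.99 RPKM in WT and 1.22 and 0.631 RPKM in JMJD1B-/- libraries (log2 fold change -1.43, limma adjusted p = 0.475). Mature B cell markers (3 of 10 listed) summed to 24.9 and 18.3 RPKM in WT and 11.3 and 14.1 RPKM in JMJD1B-/- libraries, with none at 0.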

How the data were processed

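RNA-seq of WT and JMJD1B-/- HSPCs (2 libraries each) was analysed. ChIP-seq samples of the series stayed out of this work. The authors deposited 1 table of RPKM values to which 1 had been added, and 1 was subtracted before use. The submitters' processing notes name TopHat2, Novoalign and mm9 without a role. The annotation is not given in the sources used here. The table itself holds 12024 entries under 11982 gene names, and the 42 names that occur more than once were averaged. A gene's highest deposited value was at least 2.0001, which leaves unlisted any gene below an RPKM of 1 throughout.

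After a filter on mean RPKM (0.5 or more), log2(RPKM + 0.1) entered limma 3.58.1 under R 4.3.3 (eBayes with a trend, genotype only, two-sided), with Benjamini-Hochberg adjustment over all 11863 genes. A fold change on this scale understates that of low genes. The study names a two-tailed Student test in general, and a gene-by-gene test was one alternative. The limma fit was also tested on simulated data. Depth was estimated from 42 genes whose values fell on whole reads within 0.2% of their transcript length, and the depth of JMJD1B-/- replicate 1 was halved because all counts of 48 checked genes came out even. The column name of JMJD1B-/- replicate 1 alone carries the tag cat, and its part in these counts was not tested. Whole reads of Id1 were accepted within 0.002 reads. No count test was run. The exact permutation test of the Id to E protein ratio used scipy 1.17.1 (Python 3.11.15, numpy 2.4.6, pandas 2.3.3, matplotlib 3.10.9).

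The members and gene lists were chosen with earlier results of these data known. Named genes were the 10 regulators, Kdm3b, listed relatives (2 of 8), and up to 4 genes of lowest unadjusted p under 0.05 per pathway list, of which 2 are not reported here. Promoter sequences came from RefSeq (GRCm38.p6, a later build than the notes name), where 6 of 10 regulators matched. Alternatives were pseudocounts of 1 and 0.01, filters, scalings, models, a replicate block and leaving out each library.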

Additional observations from a re-analysis of the deposited data

How the results depend on the processing

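The limit of these data is 2 libraries per genotype, with JMJD1B-/- libraries that differ from each other. Where a library was left out, the lone library was assumed by limma to vary like the other genotype. Log2 fold changes over the 4 left-out libraries ran from -0.51 to 0.01 for Ikzf2 (0.01 without JMJD1B-/- replicate 2), from -0.49 to 2.14 for Ikzf3 and from -0.36 to 1.76 for Id2 (both negative without JMJD1B-/- replicate 1), from -1.79 to -0.81 for Id1, from -2.27 to -0.33 for Satb1 and from -2.82 to -2.47 for Kdm3b. Ikzf1 (0.22 to 0.46), Tcf3 (0.14 to 0.56) and Tcf4 (-0.41 to -0.0004) kept their direction. Counts of regulators called or without overlap are not given for fits with a library left out. There a lone library has no spread of its own, and fewer libraries make non-overlap more frequent by construction. Under pseudocounts, filters, scalings, other models and the replicate block, all 8 regulators kept their direction and none passed adjustment. Regulators at an unadjusted p under 0.05 were 2 with a pseudocount of 1 and 2 without a filter (beside 10.5% and 10.1% of all genes). They were 1 without a trend and 1 with the replicate block (beside 9.39% and 12.5%). The log2 fold change of Kdm3b was no longer called with median-ratio scaling (-2.64, adjusted p = 0.0648), quantile normalization (-2.60, 0.0991), limma without a trend (-2.65, 0.212) and the gene-by-gene test (-2.65, 0.608). Other lymphoid transcription factors at an unadjusted p under 0.05 (5) numbered 8 with quantile normalization, 2 without a trend, 2 gene by gene, 9 with the replicate block and 2 to 12 with a library left out. Early lymphoid progenitor genes (4, beside 10.1% of all genes) numbered 2 with median-ratio scaling (beside 11.5%) and 1 with quantile normalization (beside 11.7%). They numbered 2 without a trend (beside 9.39%), 1 gene by gene (beside 7.25%) and 6 with the replicate block (beside 12.5%). Early B lineage genes (2, beside 10.1% of all genes) numbered 1 with quantile normalization (beside 11.7%), 0 gene by gene (beside 7.25%) and 1 with the replicate block (beside 12.5%). The Id to E protein log2 difference (0.16) ran from -1.01 to 1.34 with a library left out, and was 0.48 with Id2 alone, 0.19 without Tcf12 and 0.16 within same-numbered pairs. Over all genes, the 5 adjusted calls became 256 with the replicate block, 18 with a pseudocount of 1, 3 with a pseudocount of 0.01 or a mean RPKM of at least 1, 1 with either scaling, 0 without a trend or gene by gene, and 1 to 989 with a library left out. Replicate numbers did not pair the libraries (r = -0.054 between same-numbered deviations across 11863 genes, which are not independent replicates). The cause of these differences was not tested.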
